A study of Bos taurus with 12 samples.

Results

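Collagens and the proteins that surround them in the stroma were read from 87 probe sets of 47 genes on the Bovine Genome Array, out of 24016 probe sets and 9155 gene symbols apart from the array controls. A probe set was taken when the platform annotation gave it the symbol of a collagen chain, COL17A1 excepted, or 1 of 26 named genes of stromal matrix and stromal cells. The collagens contributed 46 probe sets of 22 genes, the other genes 41 probe sets of 25 genes, and FBLN2 had no probe set under its symbol. Endometrium of Simmental heifers was sampled with a cytobrush, which strokes tissue off the uterine wall, at days 3 and 7 of the cycle that preceded an embryo transfer. Heifers carrying a detectable embryo on day 28 after transfer of an in vitro-produced blastocyst were afterwards named high receptive (labelled receptive) and the others low receptive (labelled non receptive), which gave the groups HR3, LR3, HR7 and LR7. Each group held 3 arrays, each array 1 pool of 5 biopsies, and the heifers of all 4 groups had been synchronised in estrus before sampling. The sources used here give no age of the heifers. The study describes its design as longitudinal, with brushing on both days, but does not say which heifers each pool held, so day 3 and day 7 pools of a group may share animals.

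Collagens are secreted triple helices that assemble outside the cell into fibrils, beaded filaments or the sheets of basement membranes, and small proteoglycans such as lumican and decorin bind the fibrils and limit their thickness. In the uterus most of this matrix is made by stromal fibroblasts beneath the epithelium, while epithelium, vessels and muscle add basement membrane chains. The endometrial stroma is remodelled in each estrous cycle under estradiol and progesterone, between the days after estrus, when progesterone is low, and the days of the growing corpus luteum. A brush takes mainly surface cells, the stromal share of these samples was not measured, and in pooled tissue fewer cells of a type and less RNA per cell cannot be told apart.

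The values were log2 signals, in which a difference of 1 is a factor of 2, and array medians lay between 6.63 and 6.77. A probe set was tested if its SD over the 12 arrays was at least 0.2 and it was above the array median in every pool of at least 1 group. Of the 87, 39 probe sets of 28 genes passed this filter, among 7339 of the whole table, and 24 of the 39 were above the median in all 4 groups. A probe set that passed only in the group where it was high had to differ between groups, so the 24 are counted separately below. Where a gene had several probe sets, the one of highest mean signal stood for it, which left 27 genes with a tested representative. All p-values are from limma over the 12 arrays with Benjamini-Hochberg adjustment over the 7339 probe sets, a call is an adjusted p under 0.05, and they measure only the spread between pools.

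Pools stood apart in these genes before any comparison. LR3 pool 1 was the lowest of the 6 day 3 pools in 21 of the 27 genes, against 29.8% of all probe sets tested, and HR7 pool 3 was the highest of the 6 day 7 pools in 16 of the 27, against 1028 of 7339 probe sets. The mean log2 signal of the 27 genes was 9.46, 9.52 and 9.27 in HR3 pools 1, 2 and 3, and 8.43, 9.30 and 9.10 in LR3. The day 7 means were 8.24, 8.17 and 9.10 for HR7, against 8.16, 8.51 and 8.49 for LR7. LR3 pool 1 thus lay below both other LR3 pools and among the day 7 values, and HR7 pool 3 reached the level of LR3 pool 3. Within groups the median range of a member gene over its 3 pools was 0.56 in HR3, 1.08 in LR3, 1.29 in HR7 and 0.80 in LR7, whereas over all probe sets tested it was 0.31 to 0.44. The 5′ minus 3′ difference of the dap probe sets, which read a bacterial control RNA of the labelling, was -3.13 to -2.66 in LR3 and -1.88 to -1.47 in LR7. It thus differed by day in LR without overlap, while in HR3 (-2.74 to -1.32) it overlapped HR7 (-2.30 to -1.77). The 3′ minus 5′ difference of the bovine actin controls was -0.17 to 0.86 in HR3 and 0.30 to 1.16 in HR7. In LR it was -0.55 to 0.62 on day 3 and 0.62 to 1.53 on day 7. That of the gapd controls overlapped between days, at 0.50 to 0.66 in HR3, 0.58 to 0.71 in HR7, 0.65 to 0.92 in LR3 and 0.44 to 0.86 in LR7. Neither was used as a covariate.

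**Figure D1:**
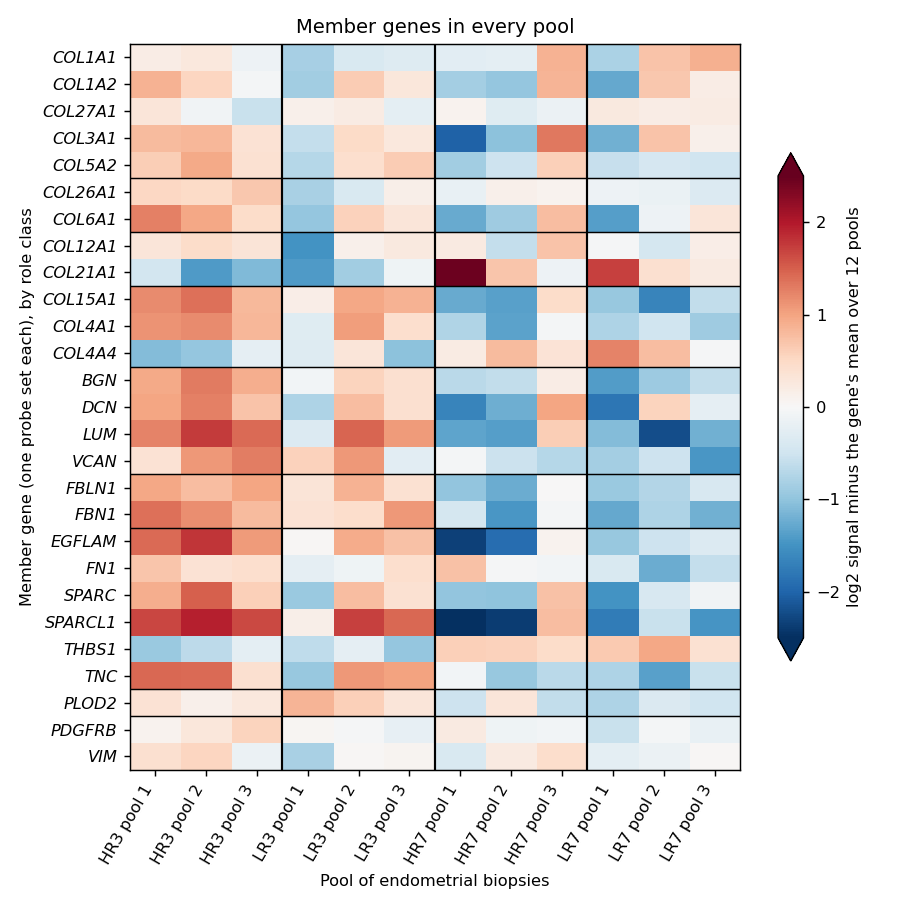
Rows are the 27 member genes by role class, columns the 12 pools, and the colour is the log2 signal minus that gene's mean over the 12 pools. Most genes are above their mean on day 3 and below it on day 7, LR3 pool 1 is the lowest day 3 column in 21 genes, and THBS1, COL21A1 and COL4A4 run the other way.

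From day 3 to day 7, 11 of the 27 member genes fell and 3 rose in each receptivity group, the falls led by SPARCL1, EGFLAM, LUM, COL15A1 and FBN1 in HR and by SPARCL1, LUM, COL15A1, FBN1 and VCAN in LR. COL21A1, THBS1 and COL4A4 rose in both. COL21A1 and COL4A4 passed the median filter only through HR7 and LR7, and BGN and PLOD2 only through HR3 and LR3. EGFLAM, COL26A1, COL5A2 and the second probe sets of COL15A1 and COL4A1 passed only through HR3. These were the groups in which each was high. In HR, 16 of the 39 member probe sets were lower, 41.0% against 20.8% of all 7339, and 5 were higher, 12.8% against 20.7%. In LR, 14 were lower, 35.9% against 22.0% of all, and 5 were higher, 12.8% against 22.7%. Over the mean of HR and LR, 19 were lower (34.8% of all) and 5 higher (31.1% of all). The median difference of the 39 was -1.23 in HR, -0.49 in LR and -0.76 over both, where that of all probe sets was -0.06, -0.10 and -0.08. The median of the 39 was -0.60 in HR without HR7 pool 1, and in LR it was -0.85 without LR3 pool 1 and -0.32 without LR3 pool 2 or LR7 pool 1. The pools of day 3 and day 7 did not overlap in 16 probe sets that were lower (31.2% of all) and 5 that were higher (29.0% of all) in HR, and in 16 lower (25.9% of all) and 4 higher (25.4% of all) in LR. Among the 24 probe sets above the median in all 4 groups, 9 were lower and 3 higher in each receptivity group, 37.5% and 12.5%. Over all 7339 the shares were 20.8% and 20.7% in HR and 22.0% and 22.7% in LR. The share over all probe sets above the median in all 4 groups was not counted. Of the member probe sets that fell, 12 were called in both groups, 4 in HR alone and 2 in LR alone, and the difference between the groups' changes was called for none. Without LR3 pool 1 and HR7 pool 3, chosen after the data were seen, 21 member probe sets were lower and 4 higher in HR. The whole table then had 1185 lower and 1226 higher. In LR, 16 were lower and 3 higher, beside 1033 and 1010 of the whole table. For most member genes these pools were the lowest of day 3 and the highest of day 7. Leaving them out therefore widened the falls in advance. With the dap difference as a covariate, 15 member probe sets were lower and 5 higher in HR, beside 1565 and 1566 of the whole table. In LR only 2 were lower and 2 higher, beside 118 and 202 of the whole table. Of the 14 genes called in LR, only VCAN remained called in that fit.

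**Figure D2:**
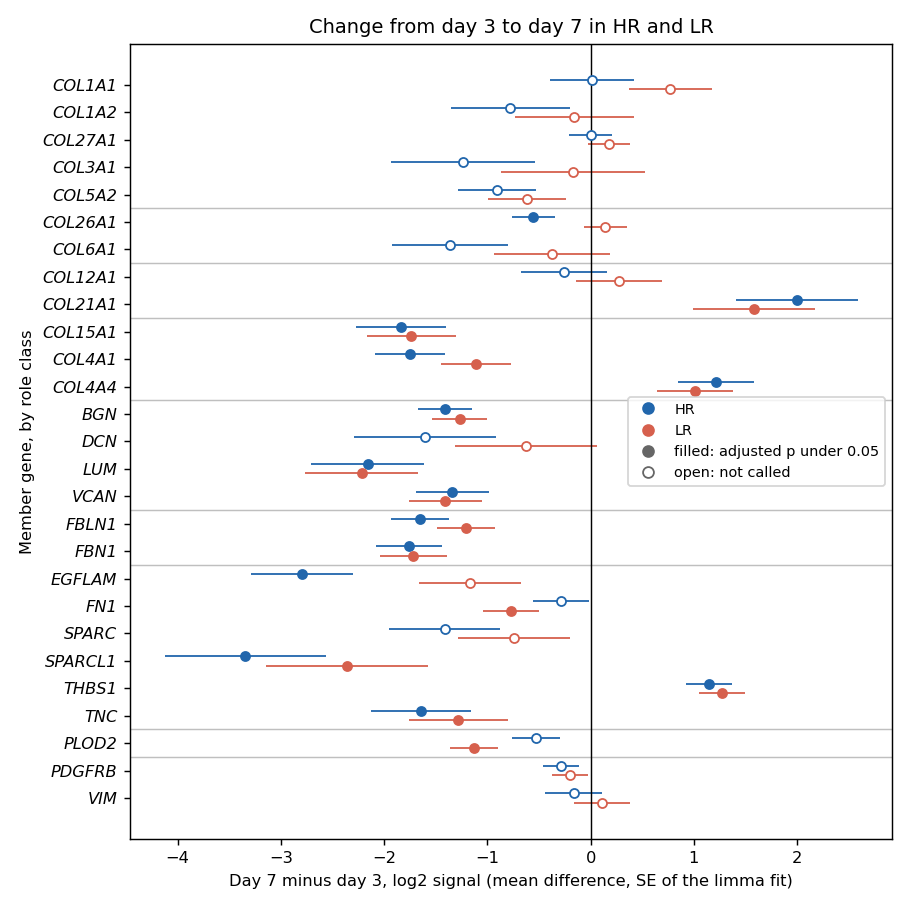
The horizontal axis is the day 7 minus day 3 difference in mean log2 signal, with the SE of the limma fit, for each of the 27 member genes in HR (blue) and LR (red), and filled points are called at adjusted p under 0.05. LUM, BGN, VCAN, FBLN1, FBN1, COL4A1 and COL15A1 lie left of 0 with filled points in both groups, COL21A1, COL4A4 and THBS1 right of 0, while the fibrillar collagens COL1A1, COL1A2, COL3A1, COL5A2 and COL27A1 are all open.

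The small leucine-rich proteoglycans and versican bind collagen fibrils and hyaluronan. Lumican (LUM, Entrez Gene 280847), which sets the spacing of collagen fibrils, had log2 signals of 10.81, 11.30 and 10.98 in HR3 and 8.25, 8.19 and 10.17 in HR7. The LR3 pools read 9.21, 11.01 and 10.62, the LR7 pools 8.48, 7.35 and 8.36. All 6 day 3 pools lay above 5 of the 6 day 7 pools, the exception being HR7 pool 3, which was above LR3 pool 1. LUM fell by 2.16 in HR (SE 0.55, n = 3 against 3, adjusted p = 0.0098, limma) and fell by 2.22 in LR (SE 0.55, adjusted p = 0.0086), and within each receptivity group the days did not overlap.

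Biglycan (BGN, Entrez Gene 280733), a proteoglycan related to decorin, had 8.21, 8.56 and 8.17 in HR3 and 6.59, 6.66 and 7.46 in HR7. Low receptive pools stood at 7.20, 7.83 and 7.66 on day 3 and at 5.88, 6.36 and 6.65 on day 7. Without overlap of the days in either group, BGN fell by 1.41 in HR (SE 0.26, adjusted p = 0.0023, limma) and fell by 1.27 in LR (SE 0.26, adjusted p = 0.0038). A second BGN probe set gave differences of -0.22 in HR and -0.28 in LR and was not called. Versican (VCAN, Entrez Gene 282662), a large proteoglycan that binds hyaluronan, had 8.88, 9.61 and 9.80 in HR3 and 8.48, 7.98 and 7.81 in HR7. In the low receptive heifers its values were 9.10, 9.61 and 8.25 (LR3), then 7.67, 8.0 and 7.07 (LR7). LR3 pool 1, the lowest pool for most members, was not low for VCAN, and no day 3 pool overlapped the day 7 pools of its own receptivity group. VCAN fell by 1.34 in HR (SE 0.36, adjusted p = 0.012, limma) and fell by 1.41 in LR (SE 0.36, adjusted p = 0.0097), and its other 2 tested probe sets were called lower in both groups as well. Without LR3 pool 1 and HR7 pool 3 the HR call was lost by a narrow margin (adjusted p = 0.0503).

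Decorin (DCN, Entrez Gene 280760), which binds collagen fibrils and growth factors, did not pass the test in either group. Its signals were 11.11, 11.39 and 10.83 in HR3 and 8.48, 8.91 and 11.12 in HR7. For LR3 the signals were 9.36, 10.89 and 10.53, for LR7 8.31, 10.68 and 9.90. HR7 pool 3 was as high as the HR3 pools and LR7 pool 2 as high as LR3 pools 2 and 3, so the days overlapped in both groups. The differences were -1.61 in HR (SE 0.69, adjusted p = 0.076, limma) and -0.63 in LR (SE 0.69, adjusted p = 0.45). HR7 pool 3 was the highest of its group for both decorin and lumican, but LR7 pool 2 held the highest decorin and the lowest lumican signal of its group. ASPN, FMOD and OGN, the other members of this class, were below the array median in at least 1 pool of every group and were not tested.

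Of the 4 elastic fibre genes, FBN1 and FBLN1 were tested, and both fell in each receptivity group. Fibrillin 1 (FBN1, Entrez Gene 281154), the main protein of microfibrils, had 11.07, 10.86 and 10.48 in HR3 and 9.25, 8.24 and 9.64 in HR7. Among the LR pools, day 3 gave 10.06, 10.14 and 10.78 and day 7 gave 8.42, 8.92 and 8.49. All 6 day 3 pools lay above all 6 day 7 pools. FBN1 fell by 1.76 in HR (SE 0.32, adjusted p = 0.0019, limma) and fell by 1.72 in LR (SE 0.32, adjusted p = 0.0023), and no pool left out ended either call.

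Fibulin 1 (FBLN1, Entrez Gene 514588), which joins basement membranes and elastic fibres, had 10.96, 10.75 and 10.97 in HR3 and 8.99, 8.74 and 9.99 in HR7. The LR3 pools read 10.30, 10.86 and 10.36, the LR7 pools 9.05, 9.26 and 9.59. The days again did not overlap in any pool. FBLN1 fell by 1.65 in HR (SE 0.28, adjusted p = 0.0013, limma) and fell by 1.21 in LR (SE 0.28, adjusted p = 0.0066). A second FBLN1 probe set was called in HR (-1.58) and not in LR (-0.55, adjusted p = 0.15). ELN and FBLN5 were below the median in at least 1 pool of every group and were not tested.

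**Figure D3:**
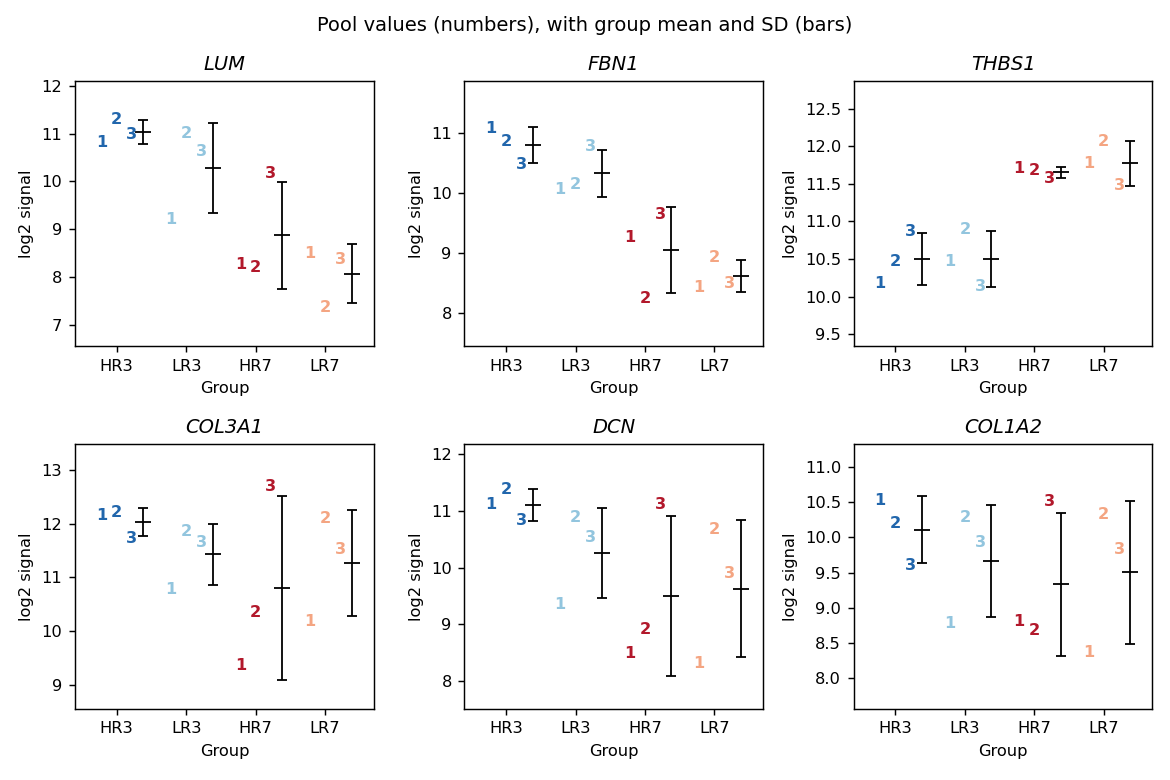
Each number is 1 pool (1, 2 or 3), the vertical axis is its log2 signal, and the black bars are the group mean and SD over 3 pools for 6 genes. LUM and FBN1 fell and THBS1 rose from day 3 to day 7, while COL3A1, DCN and COL1A2 spread on day 7 into high pools (HR7 pool 3, LR7 pools 2 and 3) and low pools (HR7 pools 1 and 2, LR7 pool 1).

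The fibrillar collagens, which make up the bulk of the fibrils, did not follow these genes past the test in either receptivity group. COL3A1 (Entrez Gene 510833), the chain of type III collagen, had 12.16, 12.20 and 11.73 in HR3 and 9.35, 10.35 and 12.69 in HR7. Low receptive pools stood at 10.78, 11.86 and 11.64 on day 3 and at 10.17, 12.10 and 11.51 on day 7. The highest of the 12 values was in HR7 pool 3 and the lowest in HR7 pool 1, a range of 3.34 within 1 group. The day 7 minus day 3 difference was -1.23 in HR (SE 0.70, adjusted p = 0.16, limma) and -0.17 in LR (SE 0.70, adjusted p = 0.85).

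COL1A2 (Entrez Gene 282188), a chain of type I collagen, had 10.53, 10.20 and 9.60 in HR3 and 8.81, 8.68 and 10.51 in HR7. In the low receptive heifers its values were 8.78, 10.29 and 9.93 (LR3), then 8.37, 10.32 and 9.83 (LR7). HR7 pools 1 and 2, LR7 pool 1 and LR3 pool 1 were low and the other 8 pools were at 9.60 or above, so the low pools came from 3 of the 4 groups. The differences were -0.78 in HR (SE 0.58, adjusted p = 0.28, limma) and -0.16 in LR (SE 0.58, adjusted p = 0.82). The other chain of type I collagen, COL1A1, differed by 0.01 in HR and 0.77 in LR and was not called. COL27A1 (Entrez Gene 513668), a fibrillar collagen known from cartilage, had 8.91, 8.52 and 8.05 in HR3, 8.70, 8.31 and 8.47 in HR7, 8.75, 8.82 and 8.37 in LR3 and 8.86, 8.80 and 8.82 in LR7. Its days overlapped in each receptivity group, with differences of 0.00 in HR and 0.18 in LR, while all HR7 pools were below all LR7 pools. COL5A2, a chain that starts fibrils together with type I collagen, was called only over the mean of both groups (-0.76, adjusted p = 0.025, limma). Leaving out any of 5 pools in turn (HR3 pool 2, HR7 pools 1 and 2, LR3 pools 2 and 3) ended that call. COL5A2 had entered the test only through HR3, the group in which it was high. COL2A1, COL5A3, COL11A1 and COL11A2 were below the median in at least 1 pool of every group.

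Of type VI collagen and the fibril-associated chains, COL21A1 alone passed the test within a receptivity group. COL6A1 (Entrez Gene 511422), a chain of the beaded filaments of type VI collagen, had 10.50, 10.20 and 9.70 in HR3 and 7.98, 8.34 and 10.00 in HR7. For LR3 the signals were 8.26, 9.82 and 9.54, for LR7 7.85, 9.11 and 9.53. As for COL3A1 and DCN, HR7 pool 3 and LR7 pools 2 and 3 were the high day 7 pools. The differences of -1.36 in HR (SE 0.56, adjusted p = 0.069, limma) and -0.38 in LR (SE 0.56, adjusted p = 0.58) were not called.

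COL12A1 (Entrez Gene 359712), a fibril-associated collagen, had 7.57, 7.72 and 7.59 in HR3, 7.49, 6.66 and 7.97 in HR7, 5.77, 7.39 and 7.50 in LR3 and 7.24, 6.83 and 7.42 in LR7. LR3 pool 1 was the lowest of the 12 pools and the other 11 lay between 6.66 and 7.97. The differences were -0.25 in HR and 0.28 in LR, neither called. COL21A1 (Entrez Gene 533456), also fibril-associated, had 7.07, 6.11 and 6.41 in HR3 and 9.97, 8.22 and 7.39 in HR7. Among the LR pools, day 3 gave 6.10, 6.66 and 7.41 and day 7 gave 9.24, 7.93 and 7.75. Pool 1 was the highest on day 7 in each receptivity group, and the days did not overlap within either group. COL21A1 rose by 2.0 in HR (SE 0.59, adjusted p = 0.020, limma) and by 1.58 in LR (SE 0.59, adjusted p = 0.046). The HR call was lost without HR3 pool 2, HR3 pool 3 or HR7 pool 1 (adjusted p up to 0.067), and the LR call in 8 of the 12 fits that left out 1 pool (up to 0.17). The call over the mean of both groups (1.79, adjusted p = 0.0032) was kept in all 12.

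COL26A1 (Entrez Gene 617340) had 6.96, 6.92 and 7.12 in HR3, 6.25, 6.56 and 6.52 in HR7, 5.62, 6.05 and 6.59 in LR3 and 6.32, 6.28 and 6.09 in LR7. HR3 stood above the other 3 groups without overlap, at signals close to the array medians. It fell by 0.56 in HR (SE 0.21, adjusted p = 0.048, limma), a call that 10 of the 12 fits without 1 pool did not keep (adjusted p up to 0.14), and differed by 0.14 in LR. A second probe set was below the median in all groups and outside the test. With no filter, adjusted over 24016 probe sets, its day 7 minus day 3 difference was -0.90 in HR (adjusted p = 0.0022) and -0.50 in LR (adjusted p = 0.023).

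Basement membrane chains went in opposite directions. COL4A1 (Entrez Gene 282191), a chain of the collagen IV network found under most epithelia and vessels, had 10.90, 10.97 and 10.62 in HR3 and 9.04, 8.45 and 9.74 in HR7. The LR3 pools read 9.49, 10.84 and 10.20, the LR7 pools 9.01, 9.29 and 8.89. The days did not overlap within a group, and COL4A1 fell by 1.75 in HR (SE 0.34, adjusted p = 0.0027, limma) and fell by 1.11 in LR (SE 0.34, adjusted p = 0.021). The LR call was lost without LR3 pool 2, LR7 pool 1 or LR7 pool 3 (adjusted p up to 0.083). A second probe set was called in HR (-1.33) and not in LR (-0.15, adjusted p = 0.75). It passed the median filter only through HR3, where it was high.

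COL15A1 (Entrez Gene 100139730), which links basement membranes to the fibrils beneath, had 9.68, 9.88 and 9.31 in HR3 and 7.25, 7.14 and 8.97 in HR7. Low receptive pools stood at 8.66, 9.47 and 9.37 on day 3 and at 7.56, 6.85 and 7.88 on day 7. HR7 pool 3 was above LR3 pool 1, but within each receptivity group the days were separate. COL15A1 fell by 1.84 in HR (SE 0.43, adjusted p = 0.0071, limma) and fell by 1.74 in LR (SE 0.43, adjusted p = 0.0091). Its second probe set was called in both, but it passed the median filter only through HR3, where it was high.

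COL4A4 (Entrez Gene 407107), which with COL4A3 and a further chain forms the collagen IV network best known from the kidney glomerulus, had 6.15, 6.26 and 7.01 in HR3 and 7.45, 8.03 and 7.58 in HR7. In the low receptive heifers its values were 6.92, 7.53 and 6.21 (LR3), then 8.47, 8.01 and 7.21 (LR7). The days were separate in HR and overlapped in LR, where LR7 pool 3 was below LR3 pool 2. The rise was 1.21 in HR (SE 0.37, adjusted p = 0.023, limma) and 1.01 in LR (SE 0.37, adjusted p = 0.044). A second COL4A4 probe set was below the array median in every pool and outside the test. Its means went the other way, from 5.80 in HR3 to 5.49 in HR7 and from 5.94 in LR3 to 5.47 in LR7. The HR call was lost without HR3 pool 1, HR3 pool 2 or HR7 pool 2 (adjusted p up to 0.082) and without LR3 pool 1 and HR7 pool 3 together (0.053), the LR call in 7 of the 12 fits without 1 pool (up to 0.16), and the call over the mean of both groups (1.11, adjusted p = 0.0034) in none. For COL4A3 a probe set of lower mean signal, below the median in every group and so outside the test, had 3.76, 3.99 and 3.69 in HR3, 5.75, 6.37 and 6.45 in HR7, 4.43, 4.57 and 3.10 in LR3 and 6.52, 6.65 and 5.44 in LR7. All of its day 7 pools lay above all day 3 pools, and with no filter it was higher on day 7 by 2.38 in HR (adjusted p = 0.0087, limma) and by 2.17 in LR (adjusted p = 0.012). The other COL4A3 probe set had group means of 5.67 in HR3, 5.98 in HR7, 5.81 in LR3 and 5.87 in LR7.

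Adhesive and matricellular glycoproteins held both the steepest falls and a rise. SPARCL1 (Entrez Gene 507537), a secreted relative of SPARC, had 10.86, 11.14 and 10.84 in HR3 and 6.03, 6.81 and 9.97 in HR7. For LR3 the signals were 9.33, 10.90 and 10.63, for LR7 7.45, 8.63 and 7.71. HR7 pool 3 was the high pool again, 3.94 above HR7 pool 1, and it exceeded LR3 pool 1. SPARCL1 fell by 3.34 in HR (SE 0.78, adjusted p = 0.0068, limma) and fell by 2.36 in LR (SE 0.78, adjusted p = 0.030), the LR call being lost without LR3 pool 2, LR3 pool 3, LR7 pool 1 or LR7 pool 3 (adjusted p up to 0.093). Without HR7 pool 3, SPARCL1 fell by 4.53 in HR.

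EGFLAM (Entrez Gene 534427), known in the mouse retina as pikachurin, a ligand of dystroglycan, had 7.72, 8.08 and 7.35 in HR3 and 3.97, 4.40 and 6.39 in HR7. Among the LR pools, day 3 gave 6.32, 7.23 and 7.02 and day 7 gave 5.34, 5.77 and 5.95. It was above the array median throughout only in HR3, so it entered the test through the group in which it was high. EGFLAM fell by 2.80 in HR (SE 0.50, adjusted p = 0.0016, limma), and the LR difference was -1.17 (SE 0.50, adjusted p = 0.070).

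Tenascin C (TNC, Entrez Gene 540664), a large glycoprotein of remodelled stroma, had 11.97, 11.95 and 10.95 in HR3 and 10.47, 9.60 and 9.87 in HR7. The LR3 pools read 9.60, 11.62 and 11.54, the LR7 pools 9.76, 9.18 and 9.98. LR3 pool 1 was 1.94 below the next day 3 pool of its group and within the LR7 range. TNC fell by 1.64 in HR (SE 0.48, adjusted p = 0.019, limma) and fell by 1.28 in LR (SE 0.48, adjusted p = 0.048). A second TNC probe set, below the array median in every pool and outside the test, had means of 5.86 in HR3 and 5.93 in HR7. Its means in LR were 6.23 on day 3 and 5.93 on day 7. The HR call was lost without HR3 pool 1, HR3 pool 2 or HR7 pool 2 (adjusted p up to 0.069), and the LR call in 10 of the 12 fits without 1 pool (up to 0.17). Over the mean of both groups the difference of -1.46 (adjusted p = 0.0032) was called in all 12.

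Fibronectin (FN1, Entrez Gene 280794), which links cells to collagen through integrins, had 13.12, 12.79 and 12.85 in HR3 and 13.15, 12.40 and 12.35 in HR7. Low receptive pools stood at 12.20, 12.31 and 12.85 on day 3 and at 12.05, 11.18 and 11.82 on day 7. The HR days overlapped and the LR days did not. FN1 fell by 0.77 in LR (SE 0.27, adjusted p = 0.036, limma), a call lost without LR3 pool 2, LR3 pool 3 or LR7 pool 2 (adjusted p up to 0.14), and its HR difference was -0.29 (SE 0.27, adjusted p = 0.39). SPARC, a collagen-binding protein, was called only over the mean of both groups (-1.08, adjusted p = 0.026), and leaving out any of 6 pools in turn (HR3 pool 2, HR7 pools 1 and 2, LR3 pools 2 and 3, LR7 pool 1) ended that call.

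Thrombospondin 1 (THBS1, Entrez Gene 281530), an inhibitor of vessel growth and an activator of TGF-beta, rose in both groups. It had 10.18, 10.46 and 10.87 in HR3 and 11.71, 11.68 and 11.57 in HR7. In the low receptive heifers its values were 10.47, 10.89 and 10.14 (LR3), then 11.77, 12.07 and 11.48 (LR7). All day 7 pools were above all day 3 pools, and neither LR3 pool 1 nor HR7 pool 3 stood apart. The rise was 1.15 in HR (SE 0.22, adjusted p = 0.0027, limma) and 1.27 in LR (SE 0.22, adjusted p = 0.0016). A second probe set rose by 1.99 and 2.01. Of its 6 probe sets, 2 further tested ones were not called, with differences of -0.23 and 0.06 in HR and -0.40 and -0.49 in LR, so the probe sets of this gene did not read 1 common change. PF4, a platelet transcript on a list of platelet markers, rose by 1.94 in HR and 1.92 in LR beside THBS1, which platelets also carry. The other tested gene of that list had positive differences and was called only over the mean of HR and LR. ITGA2B and TUBB1 of that list were below the array median on all 12 arrays, and the part of platelets in the THBS1 result was not tested.

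Of the collagen-modifying enzymes, PLOD2 (Entrez Gene 533642), a lysyl hydroxylase that acts on the telopeptides of collagen, had 7.36, 7.13 and 7.26 in HR3 and 6.48, 7.30 and 6.39 in HR7. For LR3 the signals were 7.85, 7.60 and 7.31, for LR7 6.23, 6.65 and 6.50. It was highest in LR3 pool 1, the pool in which most members were lowest. PLOD2 fell by 1.13 in LR (SE 0.23, adjusted p = 0.0035, limma), and its HR difference was -0.53 (SE 0.23, adjusted p = 0.082). PLOD1, a lysyl hydroxylase of the helical part, was read by a representative whose SD was too small to be tested (group means 10.31, 10.20, 10.21 and 10.06 in HR3, HR7, LR3 and LR7). Its second probe set had 8.20, 8.27 and 8.23 in HR3, 9.43, 9.40 and 8.92 in HR7, 8.04, 8.29 and 8.10 in LR3 and 10.01, 9.42 and 9.25 in LR7. That probe set rose by 1.02 in HR (SE 0.20, adjusted p = 0.0028, limma) and by 1.42 in LR (SE 0.20, adjusted p = 0.00049) while the other stayed within a range of 0.26 between group means. LOX, which cross-links collagen, was below the median in every group, with values of 0.15 to 4.63.

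The genes of mesenchymal cells did not pass the test in either receptivity group. Vimentin (VIM, Entrez Gene 280955), the intermediate filament of stromal and blood cells, had 10.89, 11.03 and 10.34 in HR3, 10.11, 10.72 and 10.94 in HR7, 9.69, 10.53 and 10.56 in LR3 and 10.24, 10.34 and 10.53 in LR7. The groups overlapped, and the differences were -0.16 in HR and 0.11 in LR (adjusted p = 0.64 and 0.74, limma). PDGFRB (Entrez Gene 527165), a growth factor receptor of fibroblasts and pericytes, had 7.58, 7.78 and 8.06 in HR3, 7.72, 7.40 and 7.44 in HR7, 7.55, 7.48 and 7.29 in LR3 and 6.95, 7.45 and 7.32 in LR7. Its differences were -0.29 and -0.20 (adjusted p = 0.19 and 0.34). PDGFRA, the receptor of endometrial fibroblasts, lay near the array median (5.60 to 7.32) and was not tested.

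The 48 probe sets outside the test were 45 that failed only on the median, 2 that failed only on the SD and 1 that failed on both. Without any filter, and adjusted over 24016 probe sets, 13 of the 87 were lower in HR (5.44% of all) and 4 higher (5.74% of all), and in LR 10 were lower (5.21% of all) and 4 higher (6.24% of all). The median difference of the 87 was then -0.29 in HR, -0.23 in LR and -0.27 over both. Over the mean of both groups, 22 were lower (14.0% of all) and 6 higher (12.5% of all). Besides COL4A3 and COL26A1, the probe sets outside the main test that changed over the mean of both groups were all lower on day 7, namely COL5A3 (-1.46), POSTN (-1.02), THBS2 (-1.07), PLOD2 (-0.57), COL11A1 (-0.28) and FN1 (-1.19), the last 3 from 1 of several probe sets each.

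The receptivity groups were compared on each day, which addresses whether the matrix differed in endometrium that later carried a pregnancy. On day 3 no member probe set was called in either direction (0.0% of all probe sets in each), and 5 were higher and 1 lower at an unadjusted p under 0.05, as were 309 (4.21%) and 209 (2.85%) of all 7339. The pools of the 2 groups did not overlap in 9 member probe sets that were higher in HR3 (5.64% of all) and in 1 that was lower (5.01% of all). Among the 24 probe sets above the median in all 4 groups, 2 were higher in HR3 without overlap and none lower, and 1 was higher at an unadjusted p under 0.05. The differences leaned to HR: 23 of the 27 genes had a higher mean in HR3 than in LR3, the median difference of the 39 probe sets was 0.53, and 3796 of the 7339 probe sets of the table were positive with a median of 0.01. LR3 pool 1 moved this value. Without it the median of the 39 was 0.29 and that of the 27 genes went from 0.53 to 0.28, with 21 of 27 positive. COL1A2 and TNC went from 0.44 and 0.70 to 0.00 and 0.04. LR3 pool 1 also had the lowest dap difference of all arrays (-3.13). With the dap difference as a covariate, the median of the 27 genes was 0.40, with 22 of 27 positive and none called. Among the 27 genes by representative, the lowest unadjusted p values were those of COL26A1 (0.91, SE 0.21, adjusted p = 0.56, limma), BGN (0.75, SE 0.26, adjusted p = 0.67) and PDGFRB (0.37, SE 0.17, adjusted p = 0.69). In each of these 3 genes all HR3 pools were above all LR3 pools, and without LR3 pool 1 the differences were 0.68, 0.57 and 0.42. In the other direction PLOD2 (-0.34), COL4A4 (-0.41) and COL27A1 (-0.15) had the lowest p values of the representatives, each at an adjusted p of 0.77 or above. Of the other probe sets, the second of FBLN1 (0.94), COL4A1 (1.05) and BGN (0.35) were higher in HR3 and 1 of THBS1 (-0.88) was lower, all 4 without overlap of the pools and at an unadjusted p under 0.05, with adjusted p values of 0.67 to 0.69 (limma). COL26A1 and the second probe sets of COL4A1 and BGN passed the median filter only through HR3, where each was high. That THBS1 probe set passed only through LR3, where it was high.

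**Figure D4:**
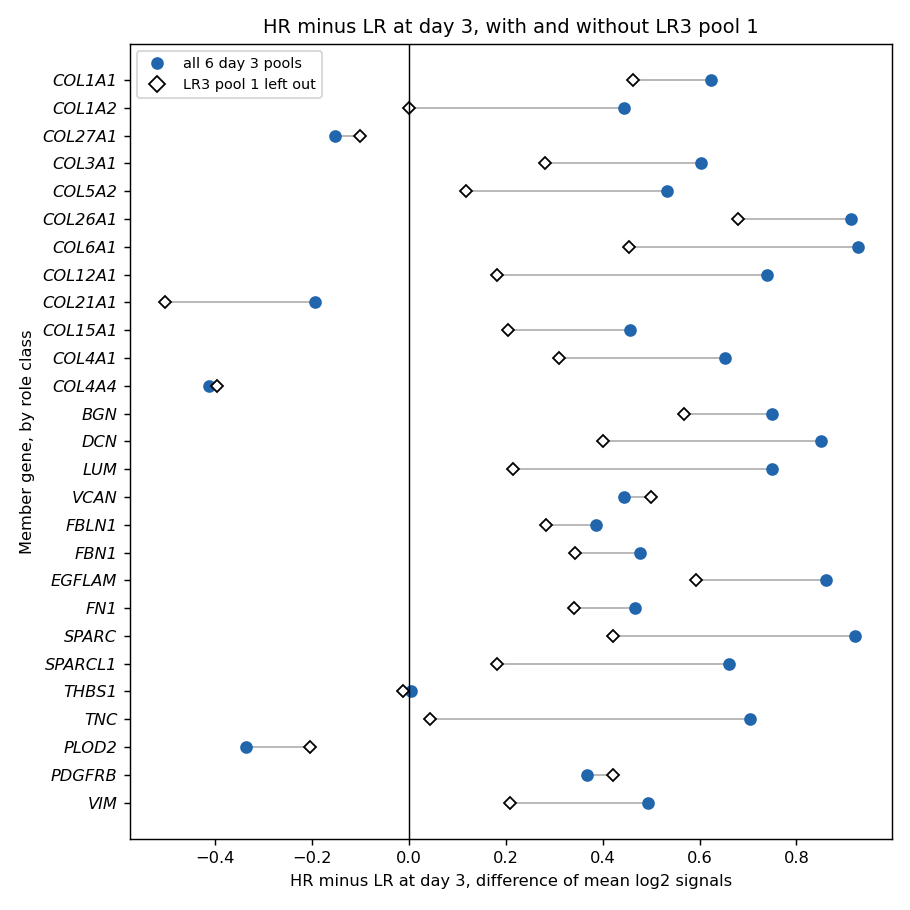
The horizontal axis is the HR3 minus LR3 difference in mean log2 signal for the 27 member genes, with all 6 day 3 pools (blue circles) and with LR3 pool 1 left out (open diamonds). 23 genes lie right of 0 with all pools, and most diamonds are closer to 0 than their circles, COL1A2 reaching 0.00. No gene is called.

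On day 7 no member was called either, and 5 probe sets of the whole table were higher in HR (0.0681%) and none lower (0.0%). At an unadjusted p under 0.05, 3 of the 39 were higher and none lower, beside 200 (2.73%) and 131 (1.78%) of the table. Without overlap of pools, 3 were higher (4.93% of all) and 1 lower (4.01% of all). FN1 had the lowest p, with a difference of 0.95 (SE 0.27, unadjusted p = 0.0041, adjusted p = 0.53, limma), and its HR7 pools (12.35 to 13.15) lay above its LR7 pools (11.18 to 12.05). BGN differed by 0.61 (SE 0.26) and PDGFRB by 0.28 (SE 0.17), both with overlapping pools, and EGFLAM by -0.77, COL3A1 by -0.46 and COL27A1 by -0.33. The second BGN probe set differed by 0.40 (SE 0.16, unadjusted p = 0.024, adjusted p = 0.88, limma) without overlap. Leaving out 1 pool gave 0.33 to 0.78 for BGN, 0.14 to 0.39 for PDGFRB and -1.50 to -0.29 for EGFLAM. The median difference of the 39 was 0.01, and it was 0.31 without HR7 pool 1 and -0.16 without HR7 pool 3, so single pools decided its sign. Over the mean of both days no member was called, beside 3 higher of the table (0.0409%).

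The change from day 3 to day 7 was not called as different between HR and LR for any of the 39 probe sets or for any of the 7339 (0.0% in each direction), with 4 member probe sets lower and 0 higher at an unadjusted p under 0.05 beside 165 (2.25%) and 121 (1.65%) of the table. Those 4 were EGFLAM (-1.63, SE 0.70), COL26A1 (-0.70, SE 0.29), the second probe set of COL4A1 (-1.18, SE 0.53) and the second of FBLN1 (-1.03, SE 0.44), where a negative value is a lower day 7 minus day 3 difference in HR. The probe sets of EGFLAM, COL26A1 and COL4A1 among these passed the median filter only through HR3, and of the 24 above the median in all 4 groups only that of FBLN1 was at an unadjusted p under 0.05. By gene, COL4A1 followed in that direction (-0.64), and PLOD2 (0.60), FN1 (0.48) and COL21A1 (0.41) led the other, with adjusted p values near 1.0 for each.

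Other genes of matrix building, on lists that leave out the members above, moved both ways with day. Of all probe sets tested, 20.7% were called higher and 20.8% lower on day 7 in HR, and 22.7% and 22.0% in LR. Of 21 measured genes for collagen folding, processing and cross-linking, 16 were tested, and 5 were higher and 3 lower on day 7 in HR, 5 and 2 in LR. TGM2, a transglutaminase that cross-links matrix proteins, rose by 2.25 in HR and 1.75 in LR, and LOXL4, a lysyl oxidase, by 1.35 and 1.58. PCOLCE, which speeds removal of the procollagen propeptide, differed by -1.71 and -1.52, both called lower. Of laminins and other basement membrane proteins 6 of 9 measured were tested, of which 3 were lower in HR and 3 in LR and none higher, with NID1, which joins laminin to collagen IV, at -2.25 and -2.21. Of 13 tested other proteoglycans, microfibril and matricellular genes (33 measured), 5 were lower and 2 higher in each receptivity group. MGP, an inhibitor of calcification, rose by 2.41 in HR and 3.14 in LR, CTGF, a matricellular growth factor partner, by 1.35 and 1.84, and MFAP2, a microfibril protein, fell by 1.48 in HR with an LR difference of -0.87 that was not called. None of these 35 genes was called between HR and LR on either day.

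Markers of cell types were set beside the day change. The shares of all probe sets called were 20.7% higher and 20.8% lower in HR, and 22.7% and 22.0% in LR. Of 7 measured stromal markers that are not members, 4 were tested and 3 were lower in HR, MME (-2.18), MMP2 (-2.05) and PDPN (-1.72), while in LR only MME (-1.44) was called. The other tested marker had a positive difference in HR, and 1 of the 4 had one in LR, neither called. The mean log2 signal of the 7 measured stromal markers per pool was 8.46 to 8.63 in HR3 and 7.27 to 7.86 in HR7, and 7.87 to 8.36 in LR3 and 7.59 to 7.77 in LR7, LR3 pool 1 being the lowest of day 3 and HR7 pool 3 the highest of day 7, as for the members. The mean signal of the 13 measured markers of uterine epithelium was 10.30 to 10.74 per pool over all 4 groups, with 1 called higher and 1 lower of 9 tested in each receptivity group, and KRT8 of that list was below the array median on all 12 arrays. Of 11 endothelial markers 9 were below the array median on all 12 arrays, and the mean signal of the list was 5.70 to 5.93 in HR3, 5.22 to 5.43 in HR7, 5.44 to 5.67 in LR3 and 5.39 to 5.73 in LR7. The 1 tested, EMCN, was lower at differences of -2.08 in HR and -1.70 in LR. Of 10 smooth muscle and pericyte markers 6 were below the median on all arrays, among them MYH11, DES and TAGLN, and of the 2 tested 1 rose and 1 fell. Of 9 leukocyte markers tested, 3 were lower in HR and 5 in LR, and the mean signal of the list was 7.17 to 7.44 in HR3, 6.62 to 6.85 in HR7, 7.18 to 7.48 in LR3 and 6.49 to 7.24 in LR7. Of 8 macrophage markers 2, CD68 and CD14, were higher in each group, and C1QC was lower in HR. KRT5 and KRT15, keratins of basal epithelium, rose by 4.34 and 3.59 in HR, and KRT5 by 2.64 in LR, where KRT15 differed by 0.68 and was not called. LAMB3, the third tested marker of that list, fell by 0.47 in LR and differed by -0.30 in HR, and KRT15 was higher in HR7 than in LR7 by 3.08 (adjusted p = 0.0013, limma), while KRT14 of that list was below the median on all arrays. The mean signal of that list was 5.65 to 6.27 in HR3, 7.02 to 7.52 in HR7, 5.67 to 6.35 in LR3 and 5.93 to 6.40 in LR7. The list means of red blood cell markers lay between 5.74 and 5.98 in all groups. No marker of these lists was at 0 on all 12 arrays, and the part of the cell mixture in the changes of the matrix genes was not tested.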

How the data were processed

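Total RNA pools from cytobrush biopsies were labelled and hybridised by the authors to 12 Affymetrix Bovine Genome Arrays, scanned with GCOS 1.1.1 under global scaling and summarised with PLIER in Expression Console. The deposited table holds 1 log2 signal per probe set and array; 112 of its 24128 rows were array controls. Genes came from the platform annotation, in which 13292 probe sets had 1 symbol, 86 several and 10638 none. The authors' present calls were not used here; the filter on the array median stood in for them. The model was fitted in limma 3.58.1 (R 4.3.3) with a mean per group over all 12 arrays, 7 comparisons, after tests on simulated data; tables and figures used Python 3.11.15, pandas 2.3.3, numpy 2.4.6 and matplotlib 3.10.9. The number of pools limits the precision. The members, gene lists and the rule for named genes (in each role class the 3 tested genes of highest signal, in each comparison up to 5 called genes a direction with the largest change, or the 3 of lowest p) were chosen with earlier results of these data known; other members were named after their values were seen.

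Pool numbers come from the labels, which do not say that they mark shared heifers or days. Same-numbered pools had residual correlations of 0.198, 0.211 and 0.463 between LR3 and LR7 and of 0.136, 0.147 and 0.445 between HR7 and LR7, and not all above 0.1 for HR3 with HR7 (0.118, 0.003 and -0.06) or with LR3 (-0.082, -0.03 and -0.47). Pools of different number reached 0.16 (LR3 pool 1 with LR7 pool 2) and 0.355 (HR7 pool 2 with LR7 pool 1). The correlations therefore do not settle whether the numbers mark pairs. Alternatives were other filters, normalizations, variance models, array weights, replicate blocks, the dap difference as a covariate and pools left out.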

Additional observations from a re-analysis of the deposited data

How the results depend on the processing

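The counts of member probe sets called between receptivity groups, and of differing day changes, were 0 in every fit. The day counts kept within 1.5 times the reported ones in most fits. Ordinary linear models gave 3 called higher in HR and 3 in LR in place of 5 each. The dap covariate gave 2 higher and 2 lower in LR in place of 5 and 14, where the dap difference and the day did not overlap. Leaving out 1 pool gave 3 to 5 higher and 13 to 21 lower in HR, 3 to 5 higher and 9 to 15 lower in LR, and 5 to 6 higher and 15 to 22 lower over both: 3 higher in HR without HR3 pool 2, 3 higher in LR without HR3 pool 2, LR3 pool 1 or LR7 pool 2, and 9 lower in LR without LR3 pool 2. Leaving out LR3 pool 1 and HR7 pool 3 together, chosen after seeing the data, gave 3 higher in LR. The replicate block over all pools gave 5 higher and 20 lower in HR and 5 and 13 in LR; within receptivity groups, added after seeing the data, it gave 5 and 18 in HR and 5 and 14 in LR, and within days 0 between HR and LR. The block within receptivity groups changed no LR call of a named gene. The block over all pools ended the TNC call in LR (adjusted p = 0.068, limma) and the block within receptivity groups that of COL26A1 in HR (0.063). Signs turned for 3 differences that were not called: COL21A1 for the difference of day changes (0.41) became -0.50 with the dap covariate and -0.31 to 0.98 without 1 pool, COL27A1 between HR3 and LR3 (-0.15) became 0.29 with that covariate and -0.36 to 0.07 without 1 pool, and COL3A1 between HR7 and LR7 (-0.46) ran from -1.41 to 0.26 without 1 pool. The median of the members over both groups was -0.27 with no filter in place of -0.76. With 3 pools a group the precision is set by the spread of the pools, and 46 of the 87 member probe sets were too dim to be tested.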
